A study of Mus musculus with 12 samples.

Results

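The genes of mitochondrial fatty acid oxidation and the long-chain acyl-CoA synthetases were followed in whole kidneys of mice that lack fat. The list held 34 genes, chosen by symbol. A probe set naming only that gene was found for 31 of them, among 19938 genes in all. Acsl1, Cpt1b and Acsl3 were not analysed here, the first for want of a listed probe set and the other two because their probe sets name several genes. The 31 genes were taken in the order of the pathway, from the carnitine shuttle to the enzymes that handle double bonds.

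RNA came from 3-week-old mice on 12 arrays in 4 groups of 3. PpargΔ/Δ mice, which are null for Pparg, were set against controls of the same mixed C57BL6/SV129 strain. AZIP mice were set against FVB controls of their own strain. AZIP mice carry a transgene for a protein that blocks leucine zipper factors, driven in fat cells by the aP2 promoter, so they lack fat and keep Pparg. Each array held RNA pooled from 3 mice, 36 mice in all, and neither the sex of the mice nor the deleted part of Pparg is given in the sources used here. The lines share no array, so each comparison has its own controls. Differences are mutant minus control on the log2 scale, each ± its limma SE, over 3 arrays a group. An adjusted p (Benjamini and Hochberg over 19938 genes) under 0.05 is the threshold for writing that a gene rose or fell. Arrays of pools spread less than single mice would.

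The kidney, and the proximal tubule above all, burns fatty acids for much of its ATP. A fatty acid is first joined to coenzyme A by an acyl-CoA synthetase and carried into the mitochondrion by the carnitine shuttle. It is then shortened in rounds of dehydrogenation, hydration, a second dehydrogenation and thiolysis, while helper enzymes shift or reduce the double bonds of unsaturated chains. Many of these genes are known targets of PPARα, the nuclear receptor that senses fatty acids in liver and kidney. PPARγ, which PpargΔ/Δ mice lack, is known mainly for making fat cells.

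The arrays were alike in scale, with medians over all probe sets of 7.17 to 7.21. The probe set of Pparg did not fall in PpargΔ/Δ kidneys (0.11 ± 0.06, limma adjusted p = 0.339; AZIP 0.22 ± 0.06, limma adjusted p = 0.0736), so it does not check the genotype. Mixed control 1 gave the highest value of its group for 20 of the 31 genes (30.9% of all genes). The lowest value of the group came from AZIP 2 for 17 (33.5% of all genes), from mixed control 3 for 17 (33.9%) and from PpargΔ/Δ 3 for 16 (33.3%). Arrays that decide a call are named beside it. Markers of 20 proximal tubule genes averaged 12.00 to 12.15 on the PpargΔ/Δ arrays and 12.27 to 12.38 in mixed controls, and 12.11 to 12.26 in AZIP against 12.33 to 12.38 in FVB controls. Their part in the results below was not tested, and in whole-kidney RNA fewer tubule cells and less RNA per cell cannot be told apart.

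In PpargΔ/Δ kidneys 6 of the 31 genes fell and 0 rose, where 2.62% of all genes fell and 2.67% rose (5.29% together). They were Cpt2 and Slc25a20 of the carnitine shuttle, the dehydrogenase Acad11, and the double-bond enzymes Eci3, Decr1 and Ech1. In AZIP kidneys 1 gene, Eci3, fell and 0 rose, where 1.13% of all genes fell and 1.3% rose (2.43% together). The difference was below 0 in both lines for 25 of the 31 genes, against 33.8% of all genes. The median of the 31 differences was -0.13 in PpargΔ/Δ and -0.04 in AZIP, beside -0.0089 and 0.0028 over all genes.

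The count of falls in PpargΔ/Δ kidneys rested in part on single arrays. It was 1 without mixed control 1, 2 without PpargΔ/Δ 3, 4 without PpargΔ/Δ 2 or mixed control 2, 5 without mixed control 3 and 7 without PpargΔ/Δ 1. In AZIP kidneys the count was 0 without AZIP 2, FVB control 1 or FVB control 2, and 2 without AZIP 1 (with Acad11) or FVB control 3 (with Acadm). All 3 PpargΔ/Δ arrays lay below all 3 mixed controls for 19 of the 31 genes (13.2% of all genes), and above them for 0 (12.9%, 26.1% in either direction). In AZIP kidneys 10 genes lay wholly below the FVB controls (11.5% of all genes) and 2, Cpt1c and Acsl4, wholly above (11%, 22.5% in either direction). Cpt1a, Cpt2, Crat, Acadm, Acad8, Acad9, Acad11 and Eci3 lay wholly below in both lines, 8 of 31 against 4.87% of all genes.

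**Figure D1:**
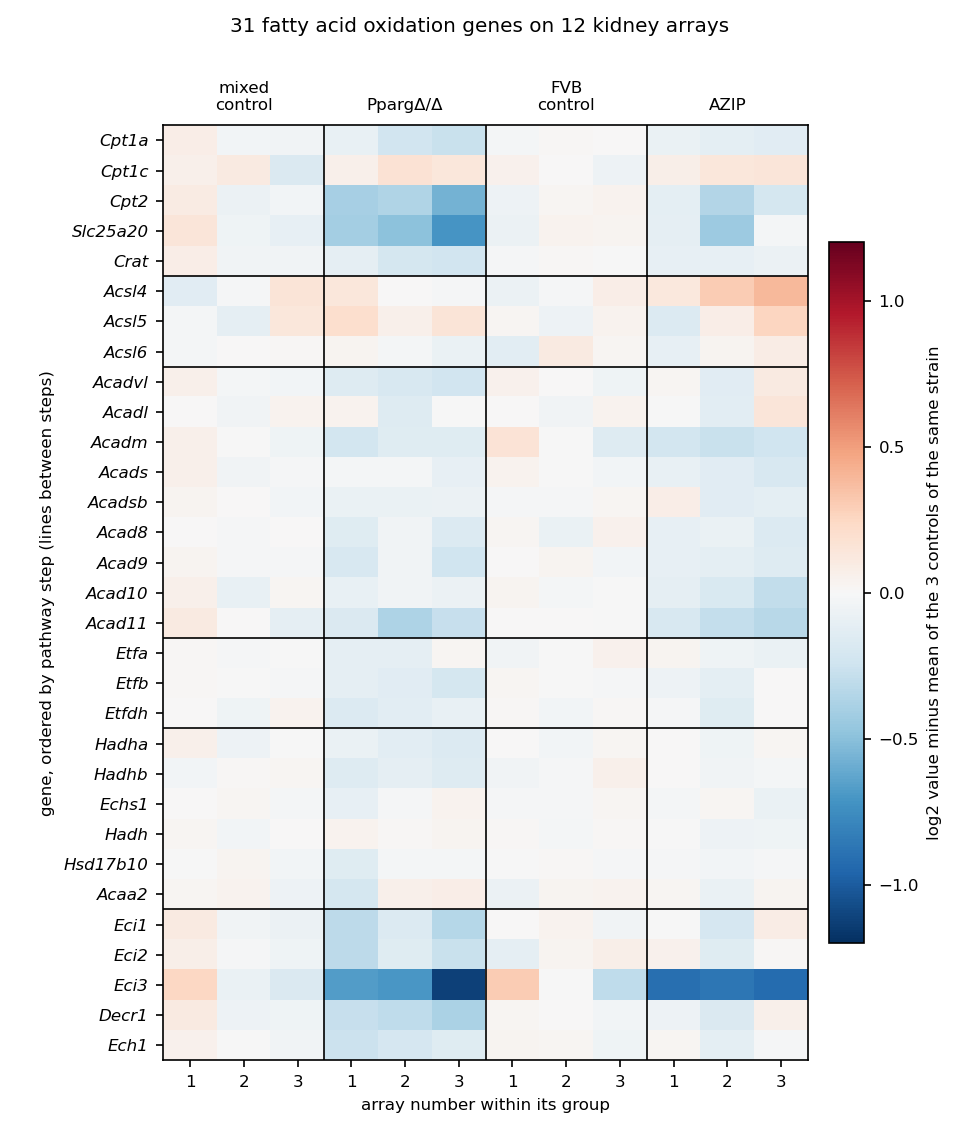
Each cell is a gene's log2 value on 1 array minus the mean of the 3 controls of the same strain, with 31 genes in pathway order and 12 arrays in 4 groups. Blue fills much of the PpargΔ/Δ block in the carnitine shuttle and the double-bond enzymes, the acyl-CoA synthetases are white or red, and Eci3 is dark blue in both mutants.

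The carnitine shuttle, which moves long-chain fatty acids across the mitochondrial membranes, held the largest falls of the PpargΔ/Δ kidneys apart from Eci3. Slc25a20, the translocase that exchanges acylcarnitine for carnitine across the inner membrane, was at 10.29, 10.20 and 9.99 in PpargΔ/Δ kidneys and at 10.84, 10.64 and 10.60 in mixed controls. The groups did not overlap, and the gene fell by 0.54 ± 0.11, to 0.690 of the control (limma adjusted p = 0.0186). In AZIP kidneys it was at 10.41, 10.09 and 10.50 against 10.45, 10.56 and 10.56 in FVB controls. Here AZIP 3 lay within the controls and AZIP 2 stood low, and the difference was -0.19 ± 0.11 (limma adjusted p = 0.44).

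Cpt2, the inner-membrane carnitine palmitoyltransferase that hands the fatty acid back to coenzyme A, was at 10.95, 10.98 and 10.78 in PpargΔ/Δ kidneys and at 11.44, 11.28 and 11.31 in mixed controls. It fell by 0.44 ± 0.07, to 0.737 of the control (limma adjusted p = 0.0082), and was the only gene of the 31 that kept the threshold with each of the 6 arrays left out. AZIP arrays read 11.25, 11.02 and 11.16 and FVB controls 11.31, 11.40 and 11.41, again with no overlap. The AZIP difference of -0.23 ± 0.07 did not pass (limma adjusted p = 0.136).

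Cpt1a, the outer-membrane carnitine palmitoyltransferase that commits long chains to oxidation, was at 11.90, 11.76 and 11.72 in PpargΔ/Δ kidneys against 12.07, 11.95 and 11.94 in mixed controls. The difference of -0.20 ± 0.06 lay just outside the threshold (limma adjusted p = 0.0635). AZIP arrays read 11.81, 11.78 and 11.75 against 11.86, 11.91 and 11.89, a difference of -0.11 ± 0.06 (limma adjusted p = 0.36). 

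Crat, which transfers acetyl and other short groups between carnitine and coenzyme A, was at 11.25, 11.15 and 11.13 in PpargΔ/Δ kidneys against 11.43, 11.32 and 11.32 in mixed controls, and at 11.43, 11.44 and 11.46 in AZIP against 11.52, 11.55 and 11.53 in FVB controls. The groups overlapped in neither line, and the differences were -0.18 ± 0.05 and -0.09 ± 0.05 (limma adjusted p = 0.0522 and 0.413). Cpt1c, a brain form with little transferase activity, was at 0.13 ± 0.07 and 0.12 ± 0.07 and passed in neither (limma adjusted p = 0.339 and 0.453).

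The acyl-CoA synthetases activate fatty acids for oxidation and for lipid synthesis alike. Of the 5 on the list, the 3 measured, Acsl4, Acsl5 and Acsl6, did not fall in either line. Acsl1 and Acsl3 have no value here, so the family was read only in part. Acsl6 was low, with a mean of 6.03 over all arrays. Acsl4, which prefers arachidonic acid, was at 10.51, 10.69 and 10.77 in AZIP kidneys and at 10.31, 10.37 and 10.46 in FVB controls. All AZIP arrays lay above the controls, yet the difference of 0.27 ± 0.09 did not pass (limma adjusted p = 0.124). In PpargΔ/Δ kidneys Acsl4 was at 0.04 ± 0.09, with overlapping groups. Acsl5, an enzyme of mitochondria and endoplasmic reticulum, was at 0.14 ± 0.09 and 0.06 ± 0.09, and Acsl6, a brain form, at -0.02 ± 0.07 and 0.01 ± 0.07 (limma adjusted p from 0.453 to 0.976 for these 4 differences).

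Acyl-CoA dehydrogenases take the first pair of hydrogens from the chain. They were below 0 in PpargΔ/Δ for 9 of 9 genes and in AZIP for 8 of 9, but Acad11 alone passed. Over all 19938 genes 10600 were below 0 in PpargΔ/Δ and 9755 in AZIP. Acad11, a less studied member of the family, was at 10.96, 10.77 and 10.86 in PpargΔ/Δ kidneys and at 11.24, 11.14 and 11.03 in mixed controls. It fell by 0.27 ± 0.07 (limma adjusted p = 0.035). In AZIP kidneys it was at 11.16, 11.07 and 11.01 against 11.35, 11.35 and 11.34, controls that lay close together. The difference there, -0.27 ± 0.07, was of like size and lay just outside the threshold (limma adjusted p = 0.0539).

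The dehydrogenases for straight chains differ in the chain length they take. Acadvl, for very long chains, was at -0.19 ± 0.06 in PpargΔ/Δ (limma adjusted p = 0.0999) and at -0.0019 ± 0.06 in AZIP. Acadl, for long chains, was at -0.04 ± 0.07 and 0.0048 ± 0.07. Acadm, for medium chains, was at 12.36, 12.44 and 12.44 in PpargΔ/Δ kidneys against 12.64, 12.58 and 12.53 in mixed controls, and at 12.56, 12.52 and 12.55 in AZIP against 12.95, 12.77 and 12.63 in FVB controls. Neither pair of groups overlapped, and the differences were -0.17 ± 0.07 and -0.24 ± 0.07 (limma adjusted p = 0.198 and 0.103). Acads, for short chains, was at -0.05 ± 0.05 and -0.14 ± 0.05 (limma adjusted p = 0.634 and 0.174).

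The other dehydrogenases of the list act mainly on branched chains or have further roles. Acad9, an assembly factor of respiratory complex I as well as a dehydrogenase, was at 9.77, 9.92 and 9.72 in PpargΔ/Δ kidneys against 9.996, 9.95 and 9.95, and at 10.30, 10.28 and 10.25 in AZIP against 10.40, 10.43 and 10.37. The differences were -0.16 ± 0.05 and -0.12 ± 0.05, with no overlap in either line (limma adjusted p = 0.11 and 0.268). Acad8, of valine breakdown, was at -0.12 and -0.11, Acadsb, of isoleucine breakdown, at -0.08 and -0.06, and Acad10, little studied, at -0.06 and -0.19, with limma adjusted p from 0.103 to 0.689.

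The electron transfer genes, which pass the electrons of every acyl-CoA dehydrogenase to ubiquinone, were below 0 in both lines without passing. Etfb, the smaller flavoprotein subunit, was at -0.15 ± 0.05 in PpargΔ/Δ (limma adjusted p = 0.0826) and -0.06 ± 0.05 in AZIP. Etfdh, the membrane oxidoreductase, was at -0.13 ± 0.05 and -0.05 ± 0.05, and Etfa, the larger subunit, at -0.06 ± 0.05 and -0.03 ± 0.05. The PpargΔ/Δ arrays lay wholly below the controls for Etfb and Etfdh but not for Etfa.

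Of the enzymes of the later steps of each round none passed in either line. Hadha and Hadhb, the subunits of the trifunctional protein that carries out these steps on long chains, were at -0.12 ± 0.05 and -0.14 ± 0.04 in PpargΔ/Δ kidneys (limma adjusted p = 0.168 and 0.0913) and at -0.0070 ± 0.05 and -0.02 ± 0.04 in AZIP. For short and medium chains the hydratase Echs1 was at -0.03 and -0.03, the dehydrogenase Hadh at 0.03 and -0.04, and the thiolase Acaa2 at -0.02 and -0.0072. Hsd17b10, a dehydrogenase of branched chains that is also part of mitochondrial RNase P, was at -0.06 and -0.02. The 95% interval of the PpargΔ/Δ difference, not adjusted over genes, was -0.06 to 0.12 for Hadh and -0.13 to 0.08 for Echs1.

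Hadha and Hadhb are shown with the DNA between them because they are transcribed away from each other from the same stretch. Per RefSeq 272 bases lie between their starts on chromosome 5, and the 300-base windows around them overlap by 228 bases. The sequence is the 250 bases before the start of Hadhb, chr5:30155003-30155252 of GRCm38.p6, plus strand, with its 17 CG pairs in capitals.
Hadha and Hadhb: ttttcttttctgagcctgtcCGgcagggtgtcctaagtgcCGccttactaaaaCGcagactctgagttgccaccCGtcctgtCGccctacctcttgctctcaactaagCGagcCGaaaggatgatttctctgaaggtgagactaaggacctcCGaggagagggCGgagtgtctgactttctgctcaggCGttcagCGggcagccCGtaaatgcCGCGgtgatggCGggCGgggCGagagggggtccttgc
Hadhb has 2 probe sets naming it alone, at -0.14 and -0.14 in PpargΔ/Δ and at -0.02 and -0.02 in AZIP.

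The enzymes that deal with double bonds are needed for unsaturated fatty acids. All 3 PpargΔ/Δ arrays lay below all 3 mixed controls for 5 of these 5 genes (13.2% of all genes). Of the 5 genes 3 fell (2.62% of all genes). Eci3, a paralogue of Eci2 described from mouse kidney peroxisomes, had the largest difference of all 31 genes in each line. It was at 9.80, 9.77 and 9.35 in PpargΔ/Δ kidneys and at 10.72, 10.39 and 10.30 in mixed controls. It fell by 0.83 ± 0.16, to 0.562 of the control (limma adjusted p = 0.0136). In AZIP kidneys it was at 10.15, 10.18 and 10.13 against 11.36, 11.04 and 10.75 in FVB controls, a fall of 0.90 ± 0.16, to 0.536 of the control (limma adjusted p = 0.0162). The AZIP arrays lay close together (SD 0.03) while their controls were spread (SD 0.30), and no groups overlapped.

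**Figure D2:**
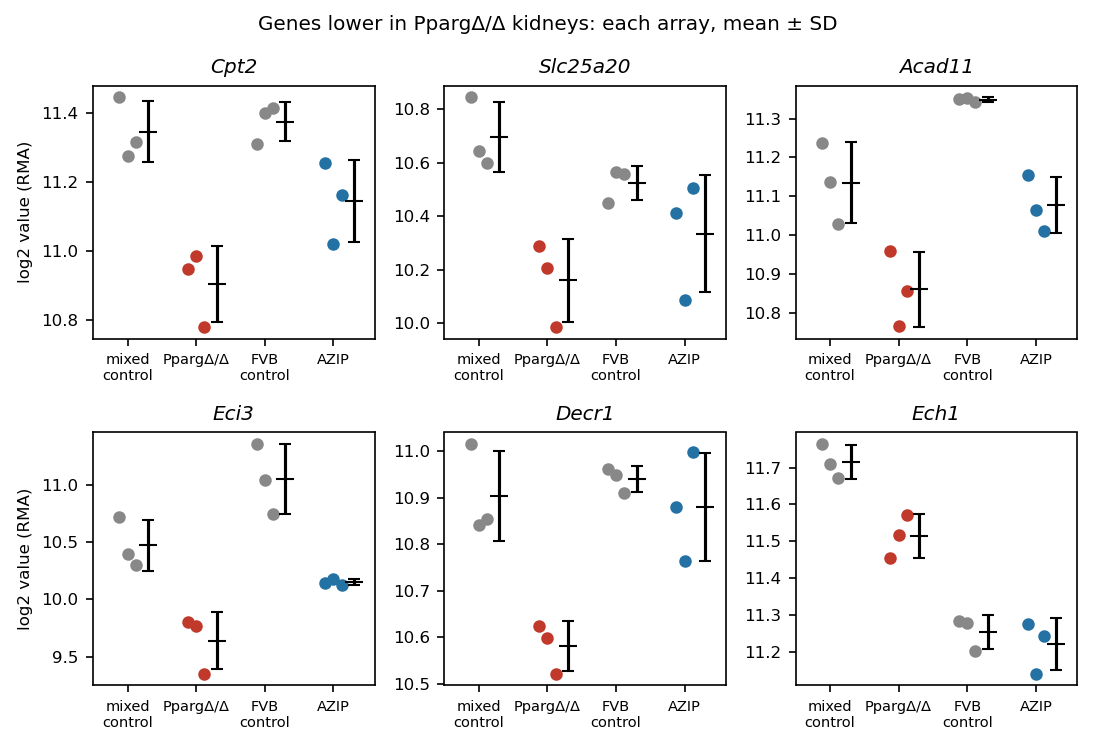
Points are the log2 values of single arrays in 4 groups for the 6 genes that fell in PpargΔ/Δ kidneys, and bars give the mean ± SD of 3 arrays. PpargΔ/Δ arrays lie below their controls in every panel, AZIP arrays do so for Cpt2, Acad11 and Eci3, and Ech1 is lower in both FVB groups than in both mixed groups.

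Decr1, the mitochondrial dienoyl-CoA reductase, was at 10.62, 10.60 and 10.52 in PpargΔ/Δ kidneys and at 11.02, 10.84 and 10.85 in mixed controls. It fell by 0.32 ± 0.07, to 0.80 of the control (limma adjusted p = 0.0188). In AZIP kidneys it was at 10.88, 10.76 and 10.997 against 10.96, 10.95 and 10.91, overlapping groups with a difference of -0.06 ± 0.07. Ech1, the dienoyl-CoA isomerase, was at 11.45, 11.52 and 11.57 in PpargΔ/Δ kidneys and at 11.76, 11.71 and 11.67 in mixed controls. It fell by 0.20 ± 0.05 (limma adjusted p = 0.0491), close to the threshold. In AZIP it was at 11.28, 11.14 and 11.24 against 11.28, 11.28 and 11.20, overlapping groups with a difference of -0.03 ± 0.05. The enoyl-CoA isomerases Eci1 and Eci2 lay just outside the threshold in PpargΔ/Δ, at -0.27 ± 0.08 and -0.24 ± 0.07 (limma adjusted p = 0.067 and 0.0639), and were at -0.04 ± 0.08 and -0.03 ± 0.07 in AZIP. Eci2 and Eci3 lie close together on chromosome 13 with 1 predicted gene between them. They are paralogues, and their probe sets gave different values.

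Several of these calls failed with 1 array left out. In PpargΔ/Δ kidneys that held for Eci3 when mixed control 1 was dropped (limma adjusted p = 0.061), and for Slc25a20 when either PpargΔ/Δ 3 or mixed control 1 was (highest adjusted p 0.0803, limma). Decr1 failed with PpargΔ/Δ 2, PpargΔ/Δ 3 or mixed control 1 dropped (highest 0.0789), and Acad11 with any of these or mixed control 2 dropped (highest 0.126). Ech1 failed whichever of the 6 arrays was dropped (highest 0.16). In AZIP kidneys Eci3 failed when AZIP 2, FVB control 1 or FVB control 2 was dropped (highest limma adjusted p 0.0715).

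Averaged over both lines, with all 12 arrays behind each value, 9 of the 31 genes fell and 0 rose, where 6.29% of all genes fell and 6.29% rose (12.6% together). Eci3 fell by 0.86 ± 0.11 (limma adjusted p = 0.000853), Slc25a20 by 0.36 ± 0.08 (0.0106), Cpt2 by 0.34 ± 0.05 (0.00246) and Acad11 by 0.27 ± 0.05 (0.00362). These 4 kept the threshold with each of the 12 arrays left out. Acadm fell by 0.20 ± 0.05 (limma adjusted p = 0.0203), Decr1 by 0.19 ± 0.05 (0.0211), Cpt1a by 0.15 ± 0.04 (0.0254), Acad9 by 0.14 ± 0.04 (0.0299) and Crat by 0.14 ± 0.03 (0.0248). All 5 of these failed with mixed control 1 dropped. PpargΔ/Δ 3 had the same effect on Decr1, Cpt1a, Acad9 and Crat, PpargΔ/Δ 2, AZIP 2 and FVB control 2 on Cpt1a and Crat, FVB control 3 on Cpt1a and FVB control 1 on Decr1. Acad9 failed with 8 of the 12 arrays dropped, passing only without PpargΔ/Δ 2, mixed control 3, AZIP 1 or FVB control 3. The count was 4 without mixed control 1 and 5 without PpargΔ/Δ 3. Of the 5 measured shuttle genes 4 were among the 9, with Cpt1c at 0.12 ± 0.05, and so were 3 of the 9 dehydrogenases and 2 of the 5 double-bond enzymes. The 9 held none of the 3 electron transfer genes, the 6 genes of the later steps or the 3 synthetases.

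**Figure D3:**
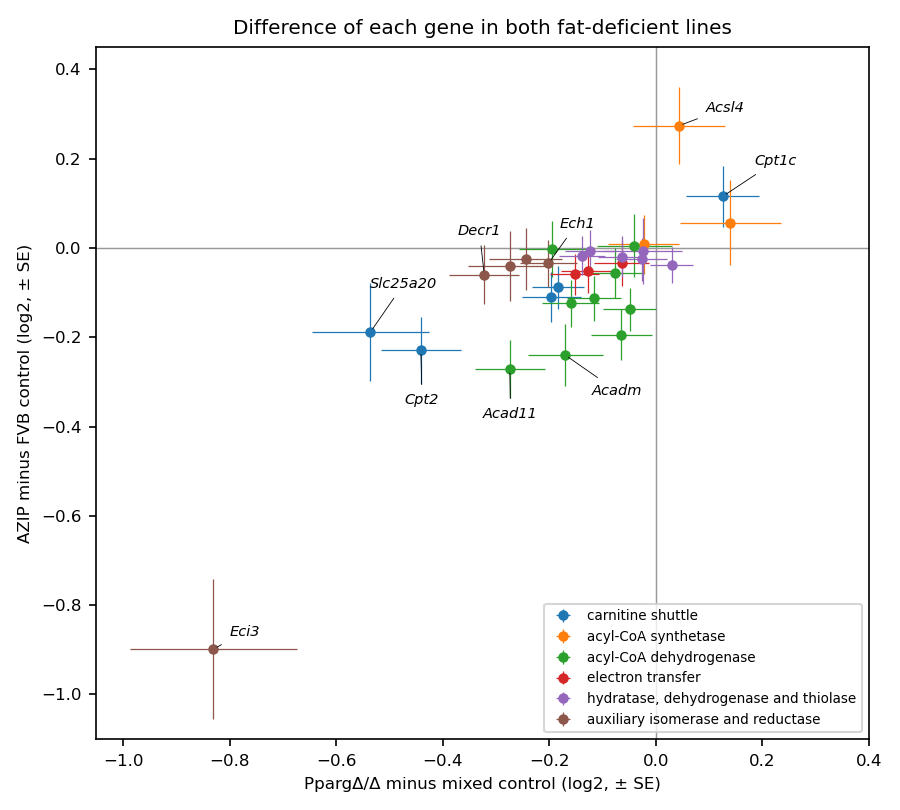
Each point is a gene, with its log2 difference in PpargΔ/Δ kidneys on the x axis and in AZIP kidneys on the y axis, bars of ± SE (n = 3 arrays a group), coloured by pathway step. Most genes lie left of and below 0, Eci3 stands apart in both lines, and Decr1 and Ech1 lie left of 0 but near it on the y axis.

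The differences in PpargΔ/Δ and in AZIP were tested against each other, and 0 of the 31 genes passed, by limma, where 0.0201% of all genes did. Genes past the threshold in PpargΔ/Δ and not in AZIP are therefore not shown to differ between the lines. Decr1 was the gene with the smallest adjusted p, with a PpargΔ/Δ difference lower than the AZIP difference by 0.26 ± 0.09 (limma adjusted p = 0.824, 95% interval not adjusted over genes -0.47 to -0.06). For Slc25a20 the interval was -0.69 to -0.01 and for Cpt2 -0.44 to 0.02, while for Acad11 it was -0.20 to 0.20. At an unadjusted p under 0.05 there were 4 genes, Slc25a20, Eci2, Decr1 and Ech1, each lower in PpargΔ/Δ, where 3.3% of all genes were lower (5.82% in either direction).

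The control strains differed too. FVB controls set against mixed controls had 3 of the 31 genes higher and 1 lower, where 3.5% of all genes were higher and 3.72% lower (7.22% together). Ech1 was at 11.28, 11.28 and 11.20 in FVB controls against 11.76, 11.71 and 11.67, lower by 0.46 ± 0.05 (limma adjusted p = 0.000289), with no overlap. Acad9 was higher in FVB by 0.44 ± 0.05 (limma adjusted p = 0.000453), Eci3 by 0.58 ± 0.16 (0.0466) and Crat by 0.18 ± 0.05 (0.0499). Ech1 and Acad9 kept the threshold with each of the 6 arrays left out. Eci3 failed when mixed control 2, mixed control 3, FVB control 1 or FVB control 2 was dropped (highest limma adjusted p 0.162), and Crat with any of the 6 but mixed control 1 dropped (highest 0.164). The count was 2 when any of those 4 arrays was dropped. These comparisons share control arrays with those above.

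Genes next to the pathway were read from lists of the same fit. For scale, 2.62% of all genes fell and 2.67% rose in PpargΔ/Δ, and 1.13% fell and 1.3% rose in AZIP. Known targets of PPARα outside the 31 genes fell for 14 of 23 in PpargΔ/Δ kidneys and rose for 0 (median -0.40). In AZIP 1 of 23 fell (median -0.17), while 10 lay wholly below the FVB controls (11.5% of all genes). In both lines 20 were below 0 (33.8% of all genes), and in the mean of both lines 16 fell (6.29%). Pdk4, the kinase that holds back glucose oxidation, was at 10.46, 9.86 and 9.45 in PpargΔ/Δ kidneys and at 11.43, 11.34 and 11.50 in mixed controls. It fell by 1.5 ± 0.23 (limma adjusted p = 0.00502), with no overlap. In AZIP Pdk4 was at -0.62 ± 0.23 (limma adjusted p = 0.196), also wholly below its controls. Acot4, a thioesterase, was the target that fell in both lines, by 0.54 ± 0.06 in PpargΔ/Δ and 0.54 ± 0.06 in AZIP (limma adjusted p = 0.00164 and 0.00429). The droplet coat genes Plin5 and Plin2 fell by 0.54 and 0.84 in PpargΔ/Δ and were at -0.07 and -0.36 in AZIP (limma adjusted p = 0.653 and 0.133).

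Fatty acid uptake and carnitine supply held 3 falls and 1 rise among 15 genes in PpargΔ/Δ kidneys and no call in AZIP, with medians of -0.10 in each line. Slc22a5, the carnitine importer of the tubule, fell by 0.42 ± 0.08 (limma adjusted p = 0.0156) and was at -0.26 ± 0.08 in AZIP (limma adjusted p = 0.123). Slc27a1, a fatty acid transporter, fell by 0.39 and Aldh9a1, of carnitine synthesis, by 0.19 in PpargΔ/Δ, while Fabp7, a fatty acid binding protein, rose by 0.90. In AZIP they were at -0.22, -0.19 and -0.49 (limma adjusted p = 0.235, 0.056 and 0.244), with Aldh9a1 and Fabp7 wholly below the FVB controls. Of 9 genes that set the level of malonyl-CoA, the inhibitor of Cpt1a, Mlycd, which destroys it, fell by 0.36 ± 0.08 in PpargΔ/Δ and by 0.38 ± 0.08 in AZIP (limma adjusted p = 0.0305 and 0.0369). Acaca, which makes it, rose by 0.25 ± 0.06 in PpargΔ/Δ and was at -0.09 ± 0.06 in AZIP (limma adjusted p = 0.0284 and 0.491). Acacb, of the same list, was at 0.15 ± 0.08 and 0.25 ± 0.08 (limma adjusted p = 0.298 and 0.121). Its arrays lay wholly above the controls in both lines. In the mean of both lines Acacb rose by 0.20 and Mlycd fell by 0.37 (limma adjusted p = 0.0337 and 0.00249). Of 12 other acyl-CoA synthetases none passed in PpargΔ/Δ (median -0.08) and Acsm1, for medium chains, fell by 0.47 ± 0.07 in AZIP (median of the list -0.04, limma adjusted p = 0.0105).

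Regulators of the pathway moved in both directions. Of 20 genes 4 rose and 1 fell in PpargΔ/Δ, and 4 rose and 0 fell in AZIP, with medians of 0.0019 and -0.02. Ppargc1a, the coactivator that drives mitochondrial genes, was at 11.76, 11.82 and 11.79 in PpargΔ/Δ kidneys against 11.46, 11.54 and 11.53, and at 11.71, 11.65 and 11.77 in AZIP against 11.40, 11.45 and 11.49. It rose by 0.28 ± 0.05 and 0.26 ± 0.05 (limma adjusted p = 0.00878 and 0.0202) with no overlap in either line. Lpin1, a partner of that coactivator, rose by 0.62 ± 0.15 and 0.86 ± 0.15, Klf15 by 0.39 ± 0.08 and 0.48 ± 0.08, and the orphan receptor gene Esrrb by 0.34 ± 0.06 and 0.33 ± 0.06. Ppara, chosen after its values were seen, was the regulator that fell, by 0.30 ± 0.08 in PpargΔ/Δ (limma adjusted p = 0.0448), and was at -0.27 ± 0.08 in AZIP (limma adjusted p = 0.0932). Ppargc1b was at -0.43 ± 0.14 and -0.56 ± 0.14 (limma adjusted p = 0.113 and 0.0652), wholly below the controls in both lines. In the mean of both lines 6 of the 20 rose and 4 fell (6.29% of all genes each way). The 6 were Lpin1 by 0.74, Klf15 by 0.43, Esrrb by 0.34, Ppargc1a by 0.27, Ppard by 0.19 and Pparg by 0.16. Ppard and Pparg had limma adjusted p = 0.0339 and 0.0239. The 4, named with their values in view, were Ppara by 0.29, Ppargc1b by 0.49, Esrra by 0.17 and Hnf4a by 0.15 (limma adjusted p = 0.00647, 0.00889, 0.0186 and 0.0367).

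Other mitochondrial genes were read from 3 lists. Of 16 citric acid cycle genes none passed in either line, with medians of -0.02 and -0.0085. Of 17 genes for mitochondrial content Tomm40, an import pore subunit, rose by 0.18 in PpargΔ/Δ and none passed in AZIP, with medians of 0.01 and -0.0033. In both lines 8 of the 16 and 6 of the 17 genes were below 0 (33.8% of all genes). Of 15 genes for branched chains and propionyl-CoA none passed in either line, with medians of -0.03 and -0.11. In AZIP 14 of these 15 were below 0 and 12 lay wholly below the FVB controls (11.5% of all genes), and in both lines 12 were below 0. In the mean of both lines 3 of them fell, Gcdh, of lysine breakdown, by 0.17 and Hibch and Hibadh, of valine breakdown, by 0.17 and 0.14 (limma adjusted p = 0.00543, 0.0231 and 0.00966), named with their values in view.

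**Figure D4:**
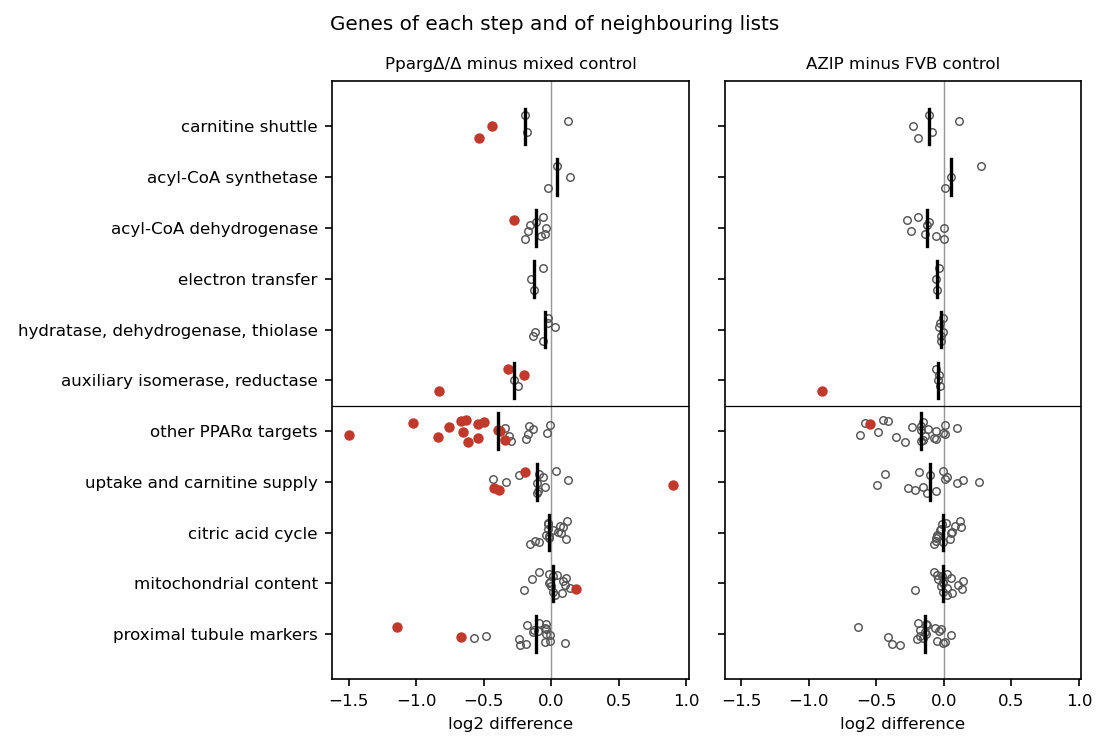
Each circle is a gene's log2 difference in PpargΔ/Δ (left) or AZIP (right) kidneys, filled red where the adjusted p is under 0.05, with a bar at the median of its row. The 6 upper rows are the pathway steps and the 5 lower rows neighbouring lists. Citric acid cycle and mitochondrial content rows centre on 0, and the other PPARα targets lie to the left.

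Marker genes of the cells and tissues in or beside a kidney were read in the same way. Of 20 proximal tubule markers 2 passed in PpargΔ/Δ, where Cyp2e1 fell by 1.14 and Slc22a12 fell by 0.67. None passed in AZIP, where these 2 were at -0.64 and -0.42 (limma adjusted p = 0.0565 and 0.16). The list medians were -0.11 and -0.14. In PpargΔ/Δ 9 and in AZIP 11 lay wholly below their controls (13.2% and 11.5% of all genes), and 6 did in both (4.87%). Below 0 in both lines were 17 (33.8% of all genes). In the mean of both lines 7 of the 20 fell (6.29% of all genes), with a median of -0.14. Of 12 collecting duct markers 6 rose in PpargΔ/Δ (2.67% of all genes) and none in AZIP, with medians of 0.23 and 0.06. Among the 6 were Krt19 by 1.25, Scnn1a by 0.35, Aqp2 by 0.48 and Aqp3 by 0.42. In PpargΔ/Δ 8 lay wholly above their controls and 1 wholly below (12.9% and 13.2% of all genes). In AZIP 3 lay wholly above and 0 wholly below (11% and 11.5%). In the mean of both lines 6 of the 12 rose and 0 fell (6.29% of all genes each way). Thick limb and distal tubule markers held 1 fall among 9 in PpargΔ/Δ, Egf by 0.26, and none in AZIP. Of 10 macrophage markers none passed in either line, with medians of 0.32 and 0.145, and PpargΔ/Δ 1 stood at a list mean of 8.80 against 8.17 and 8.32 for the other two. AZIP 2 stood at 8.23 against 7.73 and 7.64 for the other AZIP arrays and 7.72 to 7.80 in FVB controls. The part of these markers in the results was not tested. With PpargΔ/Δ 1 left out, 7 genes of fatty acid oxidation fell in that line. The fall of Eci3 in AZIP kidneys did not pass without AZIP 2, nor without FVB control 1 or FVB control 2.

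Fat and muscle also burn fatty acids with these enzymes. Adipoq was at 4.28 to 4.61 on all 12 arrays and Lep at 5.01 to 5.43, low values for the array, with no call. Of 11 white fat markers Lipe fell by 0.59 in PpargΔ/Δ, and Aoc3 rose by 0.38 there and by 0.41 in AZIP. Of 10 brown fat markers Pank1 fell by 0.43 in PpargΔ/Δ, and Ppargc1a is the gene described above. Ucp1, picked with its values in view, stood at 6.43, 7.39 and 5.44 in AZIP against 6.06, 5.73 and 5.63. In PpargΔ/Δ it stood at 5.37, 5.35 and 5.23 against 5.73, 5.65 and 6.10, and it passed in neither line. Wholly below the mixed controls in PpargΔ/Δ lay 3 brown and 4 white fat markers (13.2% of all genes), and wholly above 1 and 2 (12.9%). In AZIP 0 and 2 lay wholly below the FVB controls (11.5%), and 1 and 3 wholly above (11%). The list means for white fat were 7.06 to 7.13 in PpargΔ/Δ against 7.17 to 7.27, and 7.24 to 7.36 in AZIP against 7.20 to 7.27. For brown fat they were 7.15 to 7.23 against 7.25 to 7.45, and 7.33 to 7.65 against 7.32 to 7.46, and the part of these tissues was not tested. Of 13 muscle markers none passed, and of 8 adrenal, 7 liver and 4 red blood cell markers Mc2r rose by 0.42, Apob fell by 0.66 and Epb42 rose by 0.34 in PpargΔ/Δ, with no call in AZIP.

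The promoters of the genes were searched for the site that PPAR receptors bind, since genes of the list are known PPAR targets. The site, called DR1, is AGGTCANAGGTCA, a repeat of the nuclear receptor motif AGGTCA with a base between. RefSeq windows of 300 bases (250 before the start and 50 after, GRCm38.p6) were held for 29 of the 34 genes, and Decr1, Crat, Acad9, Acaa2 and Cpt1b were not searched. No window had an exact match on either strand, where 0.0396% of all 32851 windows did. With up to 2 mismatches in its 12 fixed letters 3 of 29 genes had a match, against 4.40% of all genes with a window. They are printed with the match in capitals, each 25 bases long on the strand of its gene.
Slc25a20: gaatgtAGGTGAAAGGTCGgcggag
Etfa: acacccTTACCTTTGCCCTactccc
Echs1: ccgctcAGGTCACGGGTCCacccct
They lie at chr9:108662136-108662160 on the plus strand for Slc25a20, where the match begins at base 7 of the transcript, at chr9:55512302-55512326 on the minus strand for Etfa, and at chr7:140116486-140116510 on the minus strand for Echs1. The match in Etfa reads on the opposite strand of its gene. Slc25a20 fell in PpargΔ/Δ kidneys, whereas Etfa and Echs1 were at -0.06 and -0.03 there. Cpt2, Eci3, Acad11 and Ech1 had 4 or 5 mismatches at their closest match in these windows. The motif AGGTCA alone, which is also part of the other sites, occurred in 6 of 29 genes against 18.1% of all genes, and TCAAGGTCA, the site of the ERR receptors, in 1 of 29, Acsl6, against 0.466%. Such matches are letters in a window and not binding.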

How the data were processed

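Whole-kidney RNA was hybridised to 12 Affymetrix arrays. The authors deposited log2 values per probe set. The submitters' processing notes name RMA, a method that subtracts background, brings the arrays to 1 distribution and summarises probes, and Affymetrix Expression Console. Sources used here give no version or setting of either, and scanner files were not analysed here. No detection calls or filter on low values entered. RMA can compress changes, and the number of arrays limits the precision (median SE 0.0571 for the 31 genes).

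Of 35556 probe sets 21789 had 1 gene symbol, and symbols were updated by Entrez number. The probe set with the highest mean stood for a gene. A model with a mean for each group was fitted to the 12 arrays (limma 3.58.1, R 4.3.3), which left 8 residual degrees of freedom beside 3.71 from the prior. Whether same-numbered arrays belong together was checked by correlating their deviations from group means. All 31 genes are named. Of every other list, up to 4 genes past the threshold with the smallest p were to be named. The genes and lists were chosen with earlier results of these data known. The fit was tested on simulated data, with 50 genes shifted at each size in the PpargΔ/Δ group. It found 44% of shifts of 0.3, 86% of 0.5 and 98% of 1, with 7 false calls. In the simulation shifts of 0.3 were thus often missed. The shifted genes were drawn from all genes and were fewer than the 1055 called in PpargΔ/Δ kidneys. The rates therefore need not hold for the 31 genes. Promoter matches with mismatches were searched after the exact search found none. Alternatives were other normalizations, filters, variance models, array weights, a replicate block, the groups compared alone, and each array left out.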

Additional observations from a re-analysis of the deposited data

How the results depend on the processing

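The fall of Cpt2, Slc25a20, Eci3 and Decr1 in PpargΔ/Δ kidneys kept its direction and side of the threshold under all 9 alternatives that keep every array. The count of genes past the threshold in PpargΔ/Δ was 10 with arrays shifted to equal medians, 10 with genes under the 25th percentile left out and 12 with a mean-variance trend, and 1 to 7 with 1 array left out. In AZIP it was 2 with quantile normalization again, 2 with equal medians, 2 with the 25th percentile filter, 3 with the trend, 2 with array weights and 2 with the replicate block, and 0 to 2 with 1 array left out. For the mean of both lines it was 15 with equal medians and 4 to 10 with 1 array left out. For the strains it was 2 with only the groups compared and 2 to 4 with 1 array left out. Over the alternatives that keep every array the counts were 4 to 12 in PpargΔ/Δ, 1 to 3 in AZIP, 9 to 15 for the mean and 2 to 6 for the strains. The strain call of Crat was lost with quantile normalization again, only the groups compared, robust variance and the replicate block, and that of Eci3 with only the groups compared. For the difference between lines it was 0 throughout. Ech1 and Acad11 lost the threshold in PpargΔ/Δ with only the groups compared (limma adjusted p = 0.0976 and 0.1). The AZIP difference of Ech1 was -0.0624 to 0.0051 with 1 array left out, above 0 without AZIP 2. The deviations of same-numbered arrays correlated at 0.18, 0.18 and 0.0086 in the PpargΔ/Δ comparison and at -0.04, -0.10 and -0.0099 in the AZIP comparison. Whether same-numbered arrays were handled together cannot be told from these correlations. With the replicate block the PpargΔ/Δ count was 5, without Ech1, and the AZIP count 2, with Acad11 added. The cause of these shifts was not tested. The number of arrays, 3 a group, limits what could be called.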
